A study of Mus musculus with 5 samples.

Results

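The genes described here code for innate defence and acute phase proteins, the secreted proteins and receptors with which a tissue meets microbes before antibodies are made. They were chosen by symbol from a list of 36 names, and 35 of them had a row in the deposited table of 22609 genes. The remaining name, Wfdc18, was matched through RefSeq synonyms to the row of its older symbol, Expi, which is described below but was kept out of the counts. RNA was sequenced from mammary glands of outbred mice, without the lymph nodes, within 12 hours of delivery. The groups were 2 wild-type libraries and 3 libraries from mice labelled Nfib-null (KO), after the gene of the transcription factor nuclear factor I/B (NFIB). The study set out to learn how NFIB, together with STAT5, governs the genes that pregnancy turns on in the gland. The labels do not say how Nfib was deleted, in which cells, with which promoter or Cre line, or whether animals were pooled.

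Each group has a single value per gene, a mean in RPKM (reads scaled to gene length and to the mapped reads of the library), so no test was possible and nothing below could be set against the spread of replicates. The wild-type column carries the wild-type name. The other, headed NfibFF-WC, was taken as the Nfib-null column because no other group is left. Nfib itself stood at 33.7 RPKM in wild-type and 55.3 RPKM in Nfib-null glands (log2 difference 0.30), which does not check that assignment, since exons outside the deleted part and cells that keep the gene can give reads. All directions below rest on it. Differences are Nfib-null minus wild type on the scale of log2(scaled RPKM + 1), after each column was divided by a factor that sets the median gene to 0. In each pair of values the wild type comes first. Higher and lower mean a difference of at least 2-fold, a limit of size and not of significance, and RPKM values are printed as deposited. Genes of milk-secreting cells were present in both columns, with 8 milk protein genes summing to 585437 and 143840 RPKM. The summed RPKM of all genes was 947746 and 548491.

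Acute phase proteins are secreted in quantity, mostly by the liver, when cytokines of the interleukin-6 and interleukin-1 families act through STAT3, NF-κB and C/EBP factors, and several are also made by epithelia, including the mammary gland. Pattern recognition receptors such as the Toll-like receptors (TLRs) bind microbial molecules, and most TLRs signal to NF-κB through the adaptor Myd88. Milk carries many of the effector proteins, among them lactoperoxidase, lysozyme, and the antibodies that the polymeric immunoglobulin receptor brings across the epithelium.

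Of the 35 genes, 32 reached a library-weighted mean of 1 RPKM and were compared. The Nfib-null column was at least 2-fold higher for 8 of them, Chi3l1, Fcgbp, Cd14, Hp, Serpina3n, Saa1, Saa2 and Lrg1, and at least 2-fold lower for 7, Pigr, Lpo, Orm1, Tlr2, Clu, Nod2 and Pglyrp1. Those shares, 25% and 21.9% of the 32, stood against 6.95% and 5.97% of the 12511 genes compared in the whole table (12.9% either way). The members were chosen with earlier results of these data known, so these shares support nothing about defence genes as a set. At 1.5-fold, 11 members were higher and 9 lower (17.1% and 14.7% of all genes, 31.8% either way), and at 4-fold 4 were higher and 1 was lower (0.727% and 1.23% of all genes, 1.96% either way). The median difference of the 32 was 0.05, beside 0.00 for all genes compared. Defence genes thus spread to both sides of a centre that lay near that of the table, and the order ran from Chi3l1 at 4.47 to Pigr at −2.91.

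**Figure D1:**
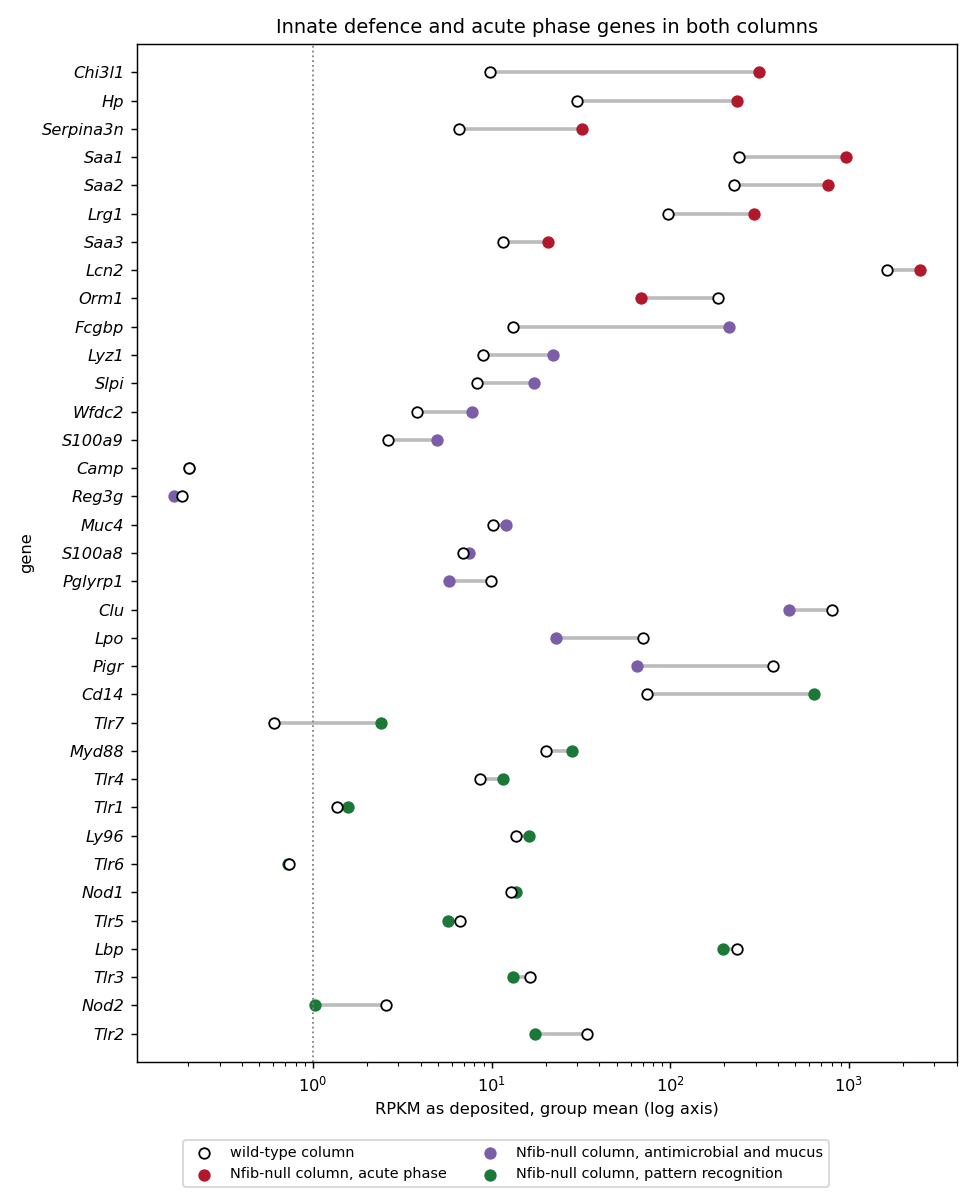
Deposited RPKM (log axis) of the 35 genes, grouped by role, with an open circle for the wild-type column, a filled circle for the Nfib-null column, a line joining the 2 values of a gene and a dotted line at 1 RPKM. Each circle is a group mean without error, and the longest line is that of Chi3l1, from 9.80 to 313 RPKM.

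How many members fell on each side depended on how the columns were scaled. With values as deposited, which moved the median of all genes by 0.35, 10 members were higher and 3 lower (76.9% of those past 2-fold were higher, against 53.3% after median-ratio scaling). Of all genes compared, 14.4% were then higher and 2.95% lower, and 83% of those past 2-fold were higher. Scaling to 11 luminal epithelial genes moved that median by −0.67. Of those past 2-fold, 31.2% of members and 5.26% of all genes were then higher. In counts, 5 members were higher and 11 lower, beside 1.57% and 28.3% of all genes compared. The number of members on the lower side was thus near the share of the whole table on that scaling. The median of the members stayed within 0.10 of that of all genes under the 5 scalings run. All but quantile normalization move both medians by nearly the same amount, so this gap could hardly change. Chi3l1, Fcgbp, Cd14, Hp and Serpina3n stayed at least 2-fold higher, and Pigr, Lpo and Orm1 at least 2-fold lower, under all 5, which makes 8 of the 15 genes past the limit. No matching count over all genes is given, so this says nothing about defence genes as a set. The other 7 came within 2-fold under at least 1 of the scalings, and the sign turned for 0 of the 15. Every scaling but quantile normalization shifts a gene by less than 2-fold from its median-ratio value. Those scalings could therefore not turn the sign of a gene past 2-fold. Among all members compared, the sign differed under at least 1 scaling for 12 and was the same under all 5 for 20.

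**Figure D2:**
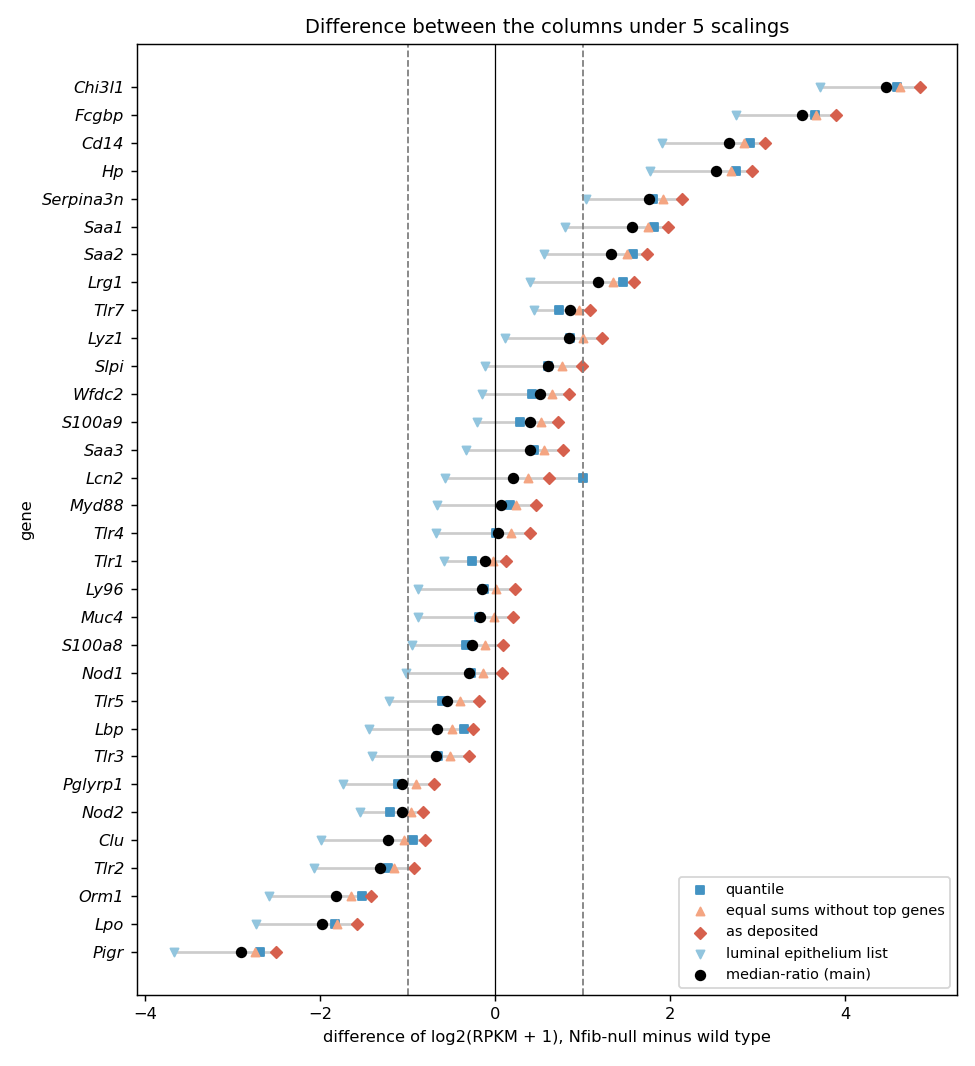
Difference of log2(RPKM + 1), Nfib-null minus wild type, for the 32 genes compared, in order of size, with a black circle for median-ratio scaling and coloured symbols for 4 other scalings. Dashed lines mark 2-fold. The 5 genes at the top and 3 at the bottom stay outside the dashed lines under every scaling plotted.

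The 9 acute phase genes were mostly higher in the Nfib-null column, with 6 higher, 1 lower and 2 within 2-fold, and a median of 1.33, beside 6.95% of all genes higher and 5.97% lower. With scaling to luminal genes 3 were higher, 1 was lower and the median was 0.56, where 1.57% of all genes were higher. As these genes were listed with earlier results of the data known, the counts are no support for the group as a whole. Chi3l1 codes for a secreted chitinase-like lectin that binds chitin without cutting it. It stood at 9.80 RPKM in wild-type and 313 RPKM in Nfib-null glands, a 31.9-fold ratio as deposited and a log2 difference of 4.47, and ranked 1 of 12511 by difference. Among the 35 genes its level moved from rank 21 to rank 6. The difference was 3.72 with scaling to luminal genes and 4.86 with values as deposited.

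Hp, haptoglobin, the plasma protein that captures free haemoglobin, stood at 29.9 RPKM in wild-type and 235 RPKM in Nfib-null glands (2.53, rank 25 of 12511). Serpina3n, a secreted serine protease inhibitor, stood at 6.54 and 32.2 RPKM (1.76). Lrg1, a leucine-rich glycoprotein that modifies TGF-β signalling, stood at 97.5 and 295 RPKM (1.18), and within 2-fold with scaling to luminal genes (0.40). Lrg1 had the highest and Serpina3n the lowest level of these 3 genes in both columns.

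Saa1 and Saa2 code for serum amyloid A proteins, small apolipoproteins that ride on high-density lipoprotein in the acute phase. Saa1 stood at 242 RPKM in wild-type and 961 RPKM in Nfib-null glands (1.57). Saa2 stood at 228 and 764 RPKM (1.33). Both came within 2-fold with scaling to luminal genes (0.80 and 0.56). The genes cannot be fully told apart in these data. Their longest coding transcripts were 87.3% identical, 14.8% of the 50-base words of Saa1 also occur in transcripts of other genes, mostly Saa2, and RefSeq lists each symbol as a synonym of the other. Summed into 1 row, they leave 7 genes higher and 7 lower. Saa3, the form known from tissues outside the liver, stood at 11.6 and 20.7 RPKM (0.40, and −0.33 with scaling to luminal genes).

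The 250 bases upstream of the annotated starts of these genes are shown because Saa1 and Saa2 carry nearly the same sequence there. The windows of Saa1 and Saa2 were 94.8% identical to each other, while those of Saa1 and Saa3 were 48.2% identical. Whether the shared sequence bears on the similar differences of Saa1 and Saa2 was not tested. Reads of Saa1 and Saa2 cannot be fully told apart, so their differences may not be separate observations. Capitals mark matches to a C/EBP pattern, TTGCNNAA on either strand. Sequences are from RefSeq on build GRCm38.p6, each in the direction of its own gene.
Saa1 (chr7:46742981-46743230, minus strand): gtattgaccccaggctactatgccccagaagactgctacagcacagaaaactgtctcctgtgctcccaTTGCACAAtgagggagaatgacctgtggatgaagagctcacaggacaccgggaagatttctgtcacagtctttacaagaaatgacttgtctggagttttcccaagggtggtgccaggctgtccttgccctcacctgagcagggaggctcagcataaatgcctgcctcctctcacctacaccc
Saa2 (chr7:46751583-46751832, plus strand): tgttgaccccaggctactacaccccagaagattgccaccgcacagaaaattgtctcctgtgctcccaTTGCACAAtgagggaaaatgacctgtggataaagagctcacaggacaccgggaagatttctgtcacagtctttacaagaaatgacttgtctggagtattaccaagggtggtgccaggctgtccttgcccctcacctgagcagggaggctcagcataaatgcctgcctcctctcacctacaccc
Saa3 (chr7:46715677-46715926, minus strand): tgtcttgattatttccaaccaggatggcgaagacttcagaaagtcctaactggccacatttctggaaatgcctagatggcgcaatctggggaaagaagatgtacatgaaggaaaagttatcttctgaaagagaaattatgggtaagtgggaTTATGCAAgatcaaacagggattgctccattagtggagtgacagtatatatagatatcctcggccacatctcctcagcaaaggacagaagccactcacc
The pattern lies 182 to 175 bases before the start in Saa1, 183 to 176 in Saa2 and 99 to 92 in Saa3. It occurs in 9.56% of all 32851 upstream windows of this length in the table. A match is a description of letters and not evidence of binding.

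Lcn2, lipocalin 2, which starves bacteria by binding their iron carriers, had the highest level of the 35 genes in both columns, at 1624 RPKM in wild-type and 2499 RPKM in Nfib-null glands. Its difference of 0.21 lay within 2-fold, turned to −0.57 with scaling to luminal genes and reached 1.01 with quantile normalization. It made up 66.7% of the summed RPKM of the 9 acute phase genes in wild-type and 48.2% in Nfib-null glands, while Saa1 and Saa2 together went from 19.3% to 33.3%. The other 8 summed to 810 and 2690 RPKM. Its upstream window holds the C/EBP pattern (capitals) 216 to 209 bases before the start.
Lcn2 (chr2:32387740-32387989, minus strand): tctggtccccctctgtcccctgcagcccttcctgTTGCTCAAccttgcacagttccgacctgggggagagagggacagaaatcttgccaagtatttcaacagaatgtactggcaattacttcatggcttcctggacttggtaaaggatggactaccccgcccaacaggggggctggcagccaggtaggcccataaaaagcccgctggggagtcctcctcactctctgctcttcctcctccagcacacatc

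Orm1, orosomucoid 1, a plasma carrier of lipids and drugs, was the acute phase member with the opposite direction, at 185 RPKM in wild-type and 68.5 RPKM in Nfib-null glands (−1.82). Of the 50-base words of Orm1, 20.4% also occur in other transcripts, chiefly those of its paralogs Orm2 and Orm3. Orm2 stood at 41.9 and 3.54 RPKM (−3.60), in the same direction, and Orm3 at 0.319 and 2.84 RPKM (1.34), in the other. Reads assigned among these copies are uncertain.

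Antimicrobial and mucus proteins were divided. Of 13 genes, 11 were compared, of which 1 was higher, 4 were lower and 6 lay within 2-fold (9.09% and 36.4%, beside 6.95% and 5.97% of all genes), with a median of −0.17 that was 0.21 with values as deposited. Fcgbp, a large protein of mucus that binds to gel-forming mucins, stood at 13.2 RPKM in wild-type and 212 RPKM in Nfib-null glands (3.51, rank 3 of 12511). Its paralog 9530053A07Rik, which shares the 8.55% of Fcgbp words that other transcripts hold, stood at 0.0606 and 0.0398 RPKM.

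Pigr, the receptor that carries polymeric IgA across the epithelium into milk, was the lowest member. It stood at 373 RPKM in the wild type, rank 3 among the 35 genes, and 65.2 RPKM in the Nfib-null column, rank 12 (−2.91). It ranked 44 of 12511 from the lower end. Igj, the J chain that joins the IgA which Pigr carries, stood at 36.3 and 109 RPKM (1.15), on the other side. The upstream window of Pigr is printed because it is the member furthest down. Its capitals mark a κB pattern, GGGANNNNCC on either strand, which 17.6% of all windows hold.
Pigr (chr1:130826434-130826683, plus strand): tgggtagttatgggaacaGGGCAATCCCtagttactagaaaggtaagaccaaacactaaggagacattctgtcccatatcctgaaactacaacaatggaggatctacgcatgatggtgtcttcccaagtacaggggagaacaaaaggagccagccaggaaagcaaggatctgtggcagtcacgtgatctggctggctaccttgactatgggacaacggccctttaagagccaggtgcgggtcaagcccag

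Lpo, lactoperoxidase, which makes the bactericidal hypothiocyanite of milk, stood at 70.3 RPKM in wild-type and 22.9 RPKM in Nfib-null glands (−1.98). Clu, clusterin, an extracellular chaperone, stood at 803 and 459 RPKM (−1.22), and within 2-fold with values as deposited (−0.80) and quantile normalization (−0.94). Pglyrp1, which binds bacterial peptidoglycan, stood at 9.94 and 5.73 RPKM (−1.06), just past the limit, and within it with equal sums (−0.91) and values as deposited (−0.70). The row Expi, the WAP-domain protein Wfdc18, had higher levels than any of the 35 genes in the wild type, at 7004 RPKM, against 2013 RPKM in the Nfib-null column (−2.21). Counting it would bring the lower genes to 8.

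The WAP-domain members Slpi and Wfdc2 lay within 2-fold, unlike Expi above. Slpi, the inhibitor of leukocyte elastase, stood at 8.25 and 17.3 RPKM (0.61), and Wfdc2 at 3.83 and 7.72 RPKM (0.51). Both turned slightly negative with scaling to luminal genes (−0.11 and −0.15). Lyz1, a lysozyme that cleaves bacterial cell walls, stood at 8.89 and 22 RPKM (0.84, and 1.22 as deposited), and 16.1% of its words also occur in Lyz2, so part of its level may belong to that gene. Lyz2, the lysozyme of macrophages, stood at 95.8 and 312 RPKM (1.28). Muc4, a membrane mucin, stood at 10.2 and 12.0 RPKM (−0.17, and 0.21 as deposited).

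The members S100a8, S100a9, Camp and Reg3g were low in both columns. S100a8 and S100a9 form calprotectin, which withholds metal ions from microbes. S100a8 stood at 6.93 RPKM in wild-type and 7.44 RPKM in Nfib-null glands (−0.27), and S100a9 at 2.63 and 4.96 RPKM (0.40). Both changed sign under at least 1 scaling. Camp, the cathelicidin antimicrobial peptide, stood at 0.201 RPKM in both columns, and Reg3g, a lectin that kills Gram-positive bacteria, at 0.184 and 0.167 RPKM. At the estimated depth these wild-type values rest on about 4.94 and 4.62 reads, so a difference was not detectable. Of 15 neutrophil markers 11 stood under 1 RPKM in both columns, and the list summed to 8.93 RPKM in wild-type and 22.3 RPKM in Nfib-null glands. Its only gene past 2-fold was Prtn3, higher at 1.86 and 9.12 RPKM, where 6.95% of all genes were higher. The 4 genes compared had a median of 0.73. Among those below the minimum, Mpo stood at 0.171 and 0.0394 RPKM, Ngp at 0.547 and 0.226 RPKM, Elane at 0.0611 and 0.48 RPKM and Mmp8 at 0.0229 and 0.174 RPKM, so their directions differed. The part of neutrophils in the members' values was not tested.

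Of 13 pattern recognition genes 12 were compared, of which 1, Cd14, was higher, 2, Tlr2 and Nod2, were lower and 9 lay within 2-fold (8.33% and 16.7%, beside 6.95% and 5.97% of all genes), with a median of −0.23 that was 0.10 with values as deposited. Scaling to luminal genes gave 1 higher and 6 lower genes of this group, where 28.3% of all genes were lower. Cd14, the co-receptor that hands lipopolysaccharide to TLR4, stood at 74.2 RPKM in wild-type and 639 RPKM in Nfib-null glands (2.68, rank 17 of 12511). The other members that act in lipopolysaccharide recognition with it did not follow it past 2-fold. Lbp, which loads lipopolysaccharide onto CD14, stood at 235 and 197 RPKM (−0.66), Tlr4 at 8.55 and 11.6 RPKM (0.03), and its partner Ly96, or MD-2, at 13.6 and 16.1 RPKM (−0.15). With scaling to luminal genes Lbp passed 2-fold lower (−1.44), and Tlr4 and Ly96 stood at −0.68 and −0.88. The ratio of Cd14 to Tlr4, which no uniform scaling can alter, was 8.69 in wild-type and 55.2 in Nfib-null glands, and that of Ly96 to Tlr4 was 1.59 and 1.39.

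Tlr2, which senses bacterial lipoproteins, stood at 34.2 RPKM in wild-type and 17.5 RPKM in Nfib-null glands (−1.32), within 2-fold with values as deposited (−0.93). Its partners Tlr1 (1.36 and 1.56 RPKM, −0.12) and Tlr6 (0.737 and 0.722 RPKM, below the minimum) had low values, and 15.3% of the words of Tlr1 also occur in other transcripts, those of Tlr6. Nod2, an intracellular sensor of muramyl dipeptide, stood at 2.57 and 1.02 RPKM (−1.07), and within 2-fold with equal sums (−0.96), values as deposited (−0.82) or a pseudocount of 5 (−0.44). Nod1, its relative, stood at 12.8 and 13.6 RPKM (−0.30), with 0.08 as deposited and −1.02 with scaling to luminal genes.

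Receptors for nucleic acids and flagellin lay within 2-fold. Tlr3, the sensor of double-stranded RNA, stood at 16.4 RPKM in wild-type and 13.2 RPKM in Nfib-null glands (−0.68), and Tlr5, the flagellin receptor, at 6.67 and 5.72 RPKM (−0.55). Both passed 2-fold lower with scaling to luminal genes (−1.41 and −1.21). Tlr7, the sensor of single-stranded RNA, stood at 0.601 and 2.39 RPKM (0.86). It was compared only because its Nfib-null value is high, and passed 2-fold with values as deposited (1.08) or a pseudocount of 0.1 (1.46). Myd88 stood at 20.2 and 28.2 RPKM (0.07, and −0.67 with scaling to luminal genes).

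In a list of 37 further genes of TLR and NF-κB signalling, which holds other receptors as well as adaptors, kinases and NF-κB subunits, 34 were compared. Of these 2 were higher (5.88%) and 1 was lower (2.94%), shares below the 6.95% and 5.97% of all genes, and the median was 0.22. The genes past 2-fold were Relb, an NF-κB subunit (3.24 RPKM in wild-type and 12.1 RPKM in Nfib-null glands, 1.27), Irak3, an inhibitory kinase of the pathway (2.91 and 9.31 RPKM, 1.06), and Tirap, the adaptor of TLR2 and TLR4 (13.6 and 8.01 RPKM, −1.07). As deposited, the counts were 7 higher and 0 lower, where 14.4% and 2.95% of all genes were. Scaling to luminal genes gave 0 higher and 10 lower, where 1.57% and 28.3% of all genes were.

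In a list of 27 cytokines, receptors and factors that drive acute phase genes 21 were compared, of which 5 were higher and 1 was lower (23.8% and 4.76%, beside 6.95% and 5.97% of all genes), with a median of 0.23. As deposited 9 were higher, where 14.4% of all genes were. Scaling to luminal genes left 1, Osmr, higher, with a median of −0.48. Osmr, the oncostatin M receptor subunit, stood at 4.83 RPKM in wild-type and 25.2 RPKM in Nfib-null glands (1.80). Socs3, the feedback inhibitor of STAT3 signalling, stood at 3.95 and 15.0 RPKM (1.33), and Cebpa, a C/EBP factor that fat cells also express, at 20.9 and 69.5 RPKM (1.29). The cytokine gene Lif stood at 0.368 and 2.61 RPKM (1.19), and Nr3c1, the glucocorticoid receptor, at 42.9 and 27.5 RPKM (−1.02, within 2-fold with 3 of the 5 scalings). Il6 was at 0.0305 and 0.0828 RPKM and Il1b at 1.79 and 1.42 RPKM (−0.46). The remaining higher gene, Il1rn, was like Lif under 1 RPKM in the wild type, so that both were compared only through their Nfib-null values and the counts are no support for the list as a whole.

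Other acute phase proteins resembled the acute phase members in their counts. Of 20 genes only 10 were compared, since the other 10 stood under 1 RPKM in both columns. Of those compared, 6 were higher and 1, Orm2, was lower (60% and 10%, beside 6.95% and 5.97% of all genes), with a median of 1.47. Scaling to luminal genes gave 3 higher and 1 lower, with a median of 0.87, where 1.57% of all genes were higher and 28.3% lower. The metallothionein Mt2, a metal-binding protein, stood at 19.0 RPKM in wild-type and 255 RPKM in Nfib-null glands (3.28), and Mt1 at 102 and 431 RPKM (1.67). Serping1, the C1 inhibitor, stood at 38.5 and 179 RPKM (1.79), and Fgg, the fibrinogen gamma chain, at 0.182 and 3.11 RPKM (1.61). Complement C3, within 2-fold, stood at 257 and 377 RPKM (0.14). Fgg and Orm3 passed the minimum only through their Nfib-null values, so these counts are no support for the list as a whole.

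Of 28 further antimicrobial and mucosal genes 14 were compared, of which 5 were higher and 3 lower (35.7% and 21.4%, beside 6.95% and 5.97% of all genes), with a median of −0.34. Scaling to luminal genes gave 1 higher and 7 lower, where 1.57% and 28.3% of all genes were. Ang, Wfdc5 and Agr2, 3 of the 8 past 2-fold after median-ratio scaling, passed the minimum only through the column where they are high. These counts too support nothing about the list. The ribonuclease Rnase4 stood at 18.0 RPKM in wild-type and 70.7 RPKM in Nfib-null glands (1.52), beta-defensin 1 (Defb1) at 1.24 and 6.85 RPKM (1.52), and the WAP-domain gene Wfdc5 at 0.265 and 3.81 RPKM (1.72). On the lower side, Wfdc3, also a WAP-domain gene, stood at 357 and 79.8 RPKM (−2.56), Agr2, a disulphide isomerase of mucus cells, at 2.85 and 0.178 RPKM (−1.89), and Xdh, the xanthine oxidoreductase of the milk fat globule, at 666 and 259 RPKM (−1.77). Ltf, the iron-binding milk protein lactoferrin, stood at 605 and 566 RPKM (−0.51).

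**Figure D3:**
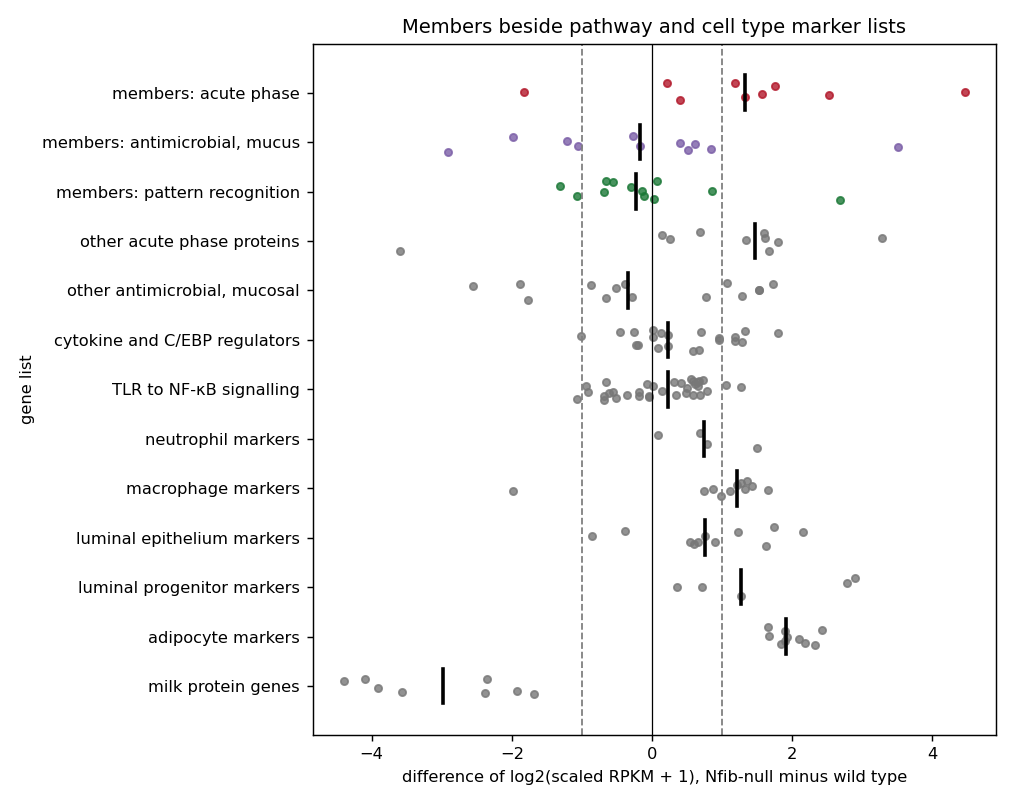
Difference between the columns, on the log2(scaled RPKM + 1) scale and positive where Nfib-null is higher, for each gene compared (points, spread vertically for visibility) in the 3 role groups, 4 pathway lists and 6 marker lists, with a black bar at each median and dashed lines at 2-fold. The acute phase members have a median of 1.33, the antimicrobial members of −0.17 and the pattern recognition members of −0.23, between the adipocyte markers at 1.91 and the milk protein genes at −2.97.

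In whole tissue, a change in the number of cells of a type and a change in RNA per cell cannot be told apart, and markers of several cell types differed between the columns as well. The counts below stand beside 6.95% of all genes higher and 5.97% lower. Of 11 macrophage markers 7 were higher and 1, Marco, was lower, with summed levels of 138 RPKM in wild-type and 458 RPKM in Nfib-null glands. All 10 adipocyte markers were higher (2737 and 13780 RPKM), as were all 7 fibroblast markers (437 and 1610 RPKM). Luminal epithelial markers were higher in 4 of 11 (890 and 1885 RPKM) and luminal progenitor markers in 3 of 5 (21.8 and 142 RPKM), while 8 of 8 milk protein genes were lower (3 of 8 with quantile normalization, median −0.36). Of 9 lymphocyte and plasma cell markers 5 were lower and 1, Igj, was higher (62.3 and 121 RPKM). With scaling to luminal genes 0 macrophage and 0 fibroblast markers were higher, against 8 adipocyte markers, where 1.57% of all genes were higher and 28.3% lower. Of 4 mast cell markers 2 were higher (22 and 63.3 RPKM), and of 5 endothelial markers 0 passed 2-fold (median −0.04). None of these lists had a gene at 0 in both columns, and their part in the differences of the defence genes was not tested. Liver cell genes gave little RNA. Of 8 hepatocyte markers 6 stood under 1 RPKM in both columns, with Cyp3a11 at 0 in both, and the list summed to 1.01 and 5.36 RPKM. The highest of them was Alb, albumin, at 0.716 and 3.88 RPKM (1.26). It was the only 1 of the list compared, and passed the minimum only through its Nfib-null value. The part of liver cells in the members' values was not tested.

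Upstream windows were matched for 27 of the 36 listed names, with 31 windows in all, since some genes have more than 1 start. The names without an entry were Chi3l1, Cd14, Lbp, Ly96, Tlr4, Tlr7, Hp, Orm1 and Clu. The C/EBP pattern was in 9 of the 31 windows (29%), against 9.56% of all windows, and those were in Lcn2, Lyz1, S100a9, Saa1, Saa2, Saa3, Slpi, Tlr3 and Tlr6. The κB pattern was in 7 (22.6%, against 17.6%), those of Pglyrp1, Pigr, Reg3g, Serpina3n, Tlr2, Tlr3 and Tlr5. A STAT pattern, TTCNNNGAA, was in 3 (9.68%, against 7.02%), in Myd88, Nod1 and Tlr1, and an NFI pattern, TGGCNNNNNGCCA, was in 1, that of Camp (3.23%, against 0.703%). The 22 matches included 0 overlapping pairs of different patterns, and genes such as Saa1 and Saa2 share their sequence, so windows are not independent. The windows of Tlr2 and Serpina3n are shown as those of a lower and a higher gene that both carry the κB pattern, in capitals.
Tlr2 (chr3:83841609-83841858, minus strand): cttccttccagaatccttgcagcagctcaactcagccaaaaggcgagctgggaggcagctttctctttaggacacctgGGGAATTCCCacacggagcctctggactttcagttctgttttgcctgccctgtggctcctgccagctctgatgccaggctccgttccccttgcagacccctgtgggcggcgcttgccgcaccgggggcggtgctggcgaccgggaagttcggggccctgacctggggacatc
Serpina3n (chr12:104406458-104406707, plus strand): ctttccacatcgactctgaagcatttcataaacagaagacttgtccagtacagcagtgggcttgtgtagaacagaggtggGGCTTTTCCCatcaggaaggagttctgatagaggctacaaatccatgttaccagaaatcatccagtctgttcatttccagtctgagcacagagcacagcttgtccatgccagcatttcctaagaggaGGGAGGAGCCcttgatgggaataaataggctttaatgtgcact

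**Figure D4:**
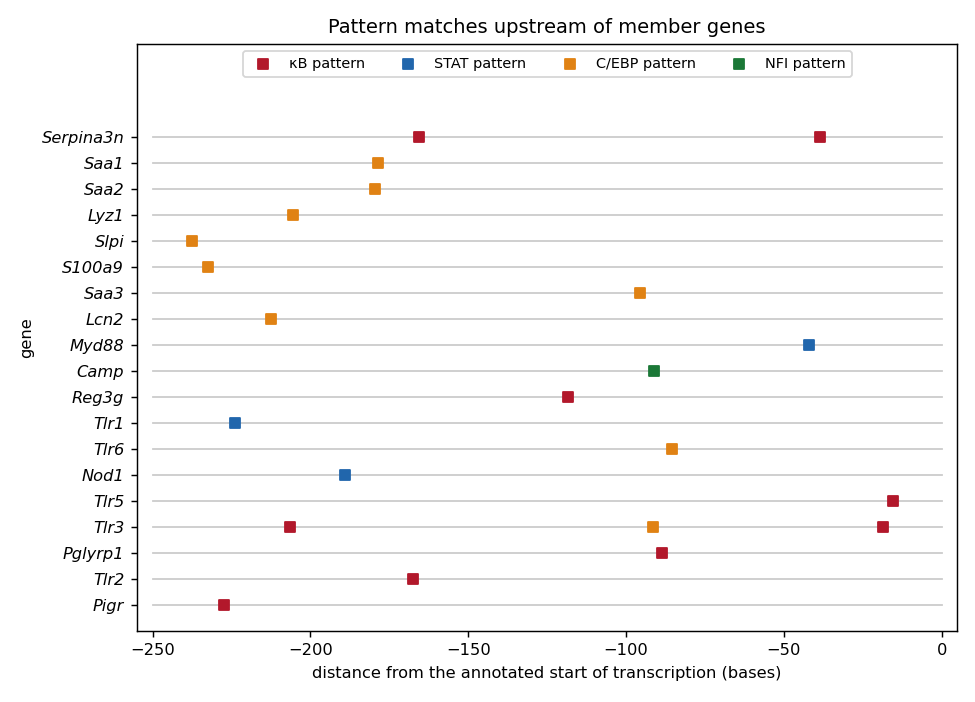
Positions of the 22 pattern matches in the 250 bases upstream of the annotated start of transcription, for the member genes with at least 1 match, ordered from the highest to the lowest difference between the columns. Saa1 and Saa2 have the C/EBP pattern at nearly the same distance, and Tlr2 and Serpina3n have a κB pattern 172 to 163 and 170 to 161 bases before the start.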

How the data were processed

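Poly(A) RNA of whole mammary glands was sequenced in 5 libraries. The authors deposited RPKM values, per the file headers, as 1 value per gene and group, and used CASAVA, TopHat and mm9, per the submitters' processing notes (no versions). Which counter, annotation and strand setting they used is not given in the sources used here. In the wild-type column 8 of 489 genes at 100 RPKM or more shared an exact value with another gene, against 0 of 544 in the other column, and 0 members did. The milk protein genes Wap and Glycam1, which are part of the milk protein sum given above, both stood at 102755 RPKM in the wild type. Such ties can come from a rank-based normalization, which no label states, so wild-type values are approximate.

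A minimum of 1 RPKM in the library-weighted mean kept 12511 genes, and columns were divided by median-ratio factors (1.153 and 0.867). A pseudocount of 1 and a limit of 2-fold were used, with Python 3.11.15, numpy 2.4.6, pandas 2.3.3 and Biopython 1.88, and the script was tested on simulated data. Steps between low values, read with GENCODE lengths, put 2 wild-type libraries at about 17600000 and 14900000 reads and 2 of the 3 Nfib-null libraries at about 27200000 and 33500000. The third was not resolved. Per kb of gene, 1 RPKM corresponds to about 32.5 wild-type reads and at least 60.7 Nfib-null reads. Named are all members, up to 4 genes past 2-fold per direction and list, and others chosen after their values were seen. Members and lists were chosen with earlier results of these data known. Alternatives were other scalings, pseudocounts, minimums and fold limits. Sequence words of 50 bases were compared among GENCODE transcripts.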

Additional observations from a re-analysis of the deposited data

How the results depend on the processing

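No paired analysis was possible because each group has a single value per gene, and leaving out a replicate could not be run for the same reason. The counts of members moved by over 1.5 times as deposited (3 lower), on the luminal scaling (5 higher, 11 lower) and at a fold limit of 4 (4 higher, 1 lower), while the remaining alternatives left both counts within 1.5 times, and the median of the members kept within 2-fold of 0 in each. No member past 2-fold changed sign under any alternative run, but of these alternatives only quantile normalization could have turned such a sign. Among all members compared, 12 changed sign under at least 1 scaling. Expi as Wfdc18 and the sum of Saa1 and Saa2 were added after the data were seen.

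The TLR and NF-κB list (2 higher, 1 lower) gave 1 higher with quantile normalization, 0 lower with equal sums, 7 higher and 0 lower as deposited, 0 and 10 on the luminal scaling, 5 higher with a pseudocount of 0.1, 0 and 0 with a pseudocount of 5, 10 and 7 at 1.5-fold and 0 and 0 at 4-fold. The list of acute phase regulators (5 higher, 1 lower) gave 0 lower with quantile normalization and with equal sums, 9 and 0 as deposited, 1 higher on the luminal scaling, 2 and 0 with a pseudocount of 5, 3 higher with a minimum of 5 RPKM, 9 higher at 1.5-fold and 0 and 0 at 4-fold. Other acute phase proteins (6 higher, median 1.47) gave 3 higher and a median of 0.87 on the luminal scaling, a median of 0.62 with a pseudocount of 5 and of 0.16 without the filter, and 1 higher at 4-fold. Other antimicrobial genes (5 higher, 3 lower) gave 1 and 7 on the luminal scaling, 2 higher with a pseudocount of 5 and with a minimum of 5 RPKM, 5 lower at 1.5-fold and 0 and 1 at 4-fold. Of all genes compared, 14.4% were higher as deposited, and 28.3% were lower on the luminal scaling. Fewer genes were tested under the higher minimum, and otherwise the cause was not tested.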
